A study of Mus musculus with 7 samples.

Results

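The Hox genes of the 4 mouse Hox clusters were followed in chromatin-associated RNA (ChrRNA-seq) of mouse embryonic stem cells (mESCs) treated with a METTL3 inhibitor. Members were all rows of the expression table whose symbol is Hoxa, Hoxb, Hoxc or Hoxd followed by a number alone, so that antisense and other suffixed genes were left out. This gave 39 of 22556 genes: 11 Hoxa genes on chromosome 6, 10 Hoxb genes on chromosome 11, 9 Hoxc genes on chromosome 15 and 9 Hoxd genes on chromosome 2 (mm10). The cells were C7H8, an XX mESC line of Cast x 129S background in which a TetOn promoter replaces the endogenous Xist promoter on the Cast allele, grown in serum with LIF on mitomycin-inactivated mouse fibroblasts as feeders. All 7 libraries received doxycycline (Dox) for 24 h to induce Xist, after 6 h in either DMSO or STM2457, a small-molecule inhibitor of the m6A writer METTL3, and the treatment was kept on during induction. DMSO had 3 libraries, 10 µM STM2457 had 2, and 20 µM and 30 µM had 1 each. The study asks how m6A acts on Xist, so that the Hox genes here are autosomal genes of the same libraries.

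Hox genes encode homeodomain transcription factors that pattern the body axis, and their order along each cluster (paralog numbers 1 to 13) follows the order in which they act from anterior to posterior. In mESCs the clusters are textbook targets of the Polycomb repressive complexes: PRC2 places H3K27me3 and PRC1 ubiquitinates H2A over them, while trithorax-group methyltransferases act in the opposite direction, and retinoic acid and Cdx factors turn the genes on as cells differentiate.

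CpG-rich promoters are the sequence class on which PRC1 and PRC2 are known to gather. RefSeq promoters (GRCm38.p6, the patch release of mm10) matched 22 of the 39 members. The 250 bases before the start site of 3 Hoxd genes are shown because the genes lie in 1 cluster and differ in whether any RNA was found: Hoxd13 (38 read pairs over the 7 libraries) and Hoxd1 (23 read pairs) at the 2 ends, and Hoxd12 (0 read pairs) beside Hoxd13. Each CG is in capitals.

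Hoxd13 (chr2:74667975-74668224, + strand): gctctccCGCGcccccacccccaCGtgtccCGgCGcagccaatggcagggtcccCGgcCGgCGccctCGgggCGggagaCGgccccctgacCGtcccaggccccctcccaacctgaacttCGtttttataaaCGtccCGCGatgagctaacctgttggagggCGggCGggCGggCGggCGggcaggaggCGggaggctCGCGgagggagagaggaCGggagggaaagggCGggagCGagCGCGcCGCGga
Hoxd12 (chr2:74674763-74675012, + strand): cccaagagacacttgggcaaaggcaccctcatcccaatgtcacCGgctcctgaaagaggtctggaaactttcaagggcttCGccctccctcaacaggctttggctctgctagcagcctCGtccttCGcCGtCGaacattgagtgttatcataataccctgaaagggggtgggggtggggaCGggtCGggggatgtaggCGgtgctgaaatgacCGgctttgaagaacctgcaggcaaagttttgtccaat
Hoxd1 (chr2:74762730-74762979, + strand): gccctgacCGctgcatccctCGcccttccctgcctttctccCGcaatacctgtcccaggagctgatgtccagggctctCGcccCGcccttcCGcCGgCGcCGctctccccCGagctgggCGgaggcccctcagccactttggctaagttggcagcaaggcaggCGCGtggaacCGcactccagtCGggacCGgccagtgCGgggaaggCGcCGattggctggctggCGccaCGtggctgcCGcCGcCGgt

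None of these 3 windows holds a base of a same-strand exon in GENCODE. The Hoxd13 window held 31 CG and the Hoxd1 window 24, against 10 in the Hoxd12 window. The other Hoxd promoters did not keep this order: the Hoxd11 window (25 read pairs) held 2 CG and the Hoxd8 window (17 read pairs) 6, while the Hoxd9 window (0 read pairs) held 13. Over the 22 promoters the CG count ran from 2 to 35 with a median of 12, against a median of 10 over 16604 promoters of the expression table. A GC content over 50% with an observed-to-expected CG ratio over 0.6 was met by 9 of 22 Hox promoters (40.9%) and by 42.8% of all. By these letters the 22 windows were not set apart from the rest. Hoxc13, Hoxc12 and Hoxb9 were not among them, nor was any Hoxc gene but Hoxc4. Each window lies before the annotated start nearest that of the gene as counted. The Hoxa3 and Hoxc4 windows lay wholly in same-strand exons (250 bases), so other starts and other members may differ. The match describes the sequence alone and says nothing of what is bound there.

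Hox RNA was close to absent. The 39 members together held 723 read pairs in all 7 libraries, where a library held between 9300549 and 28030180 read pairs on genes. Values are given in RPM (read pairs per 1000000 read pairs on genes), and 1 read pair was worth 0.0357 to 0.108 RPM. A count of 0 allows up to 3 read pairs, which is 0.107 RPM in the deepest library and 0.323 RPM at 20 µM, the shallowest. The mean over the 7 libraries was at least 1 RPM for 1 member, Hoxc13, while 60.3% of all genes reached it. It was under 0.1 RPM for 31 of the 39 members, against 26.0% of all genes. At this depth, 25 members never had more than 3 read pairs in any library.

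Counts of 0 were of 2 kinds. In all libraries 11 members were at 0. Of these, Hoxa4, Hoxa5 and Hoxa6 lie wholly within the Hoxa3 gene on the same strand, and Hoxd4 lies wholly within Hoxd3. In the expression table, 391 of 392 genes that lie wholly in another gene of the same strand were at 0 (99.7%), as against 11.6% of the 21828 genes that share no base with one. The 0 of these 4 members therefore gives no level, and their RNA could not be seen apart from that of the longer gene. The other 7, Hoxa11, Hoxb1, Hoxb2, Hoxb5, Hoxb8, Hoxd9 and Hoxd12, had bases of their own and were not detected at this depth. The remaining 28 members had at least 1 read pair in some library, and 4, among them Hoxb9, Hoxc12 and Hoxc13, had one in each of the 7. The map of members by library lays out the values of the Hoxb, Hoxc and Hoxd clusters.

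**Figure D1:**
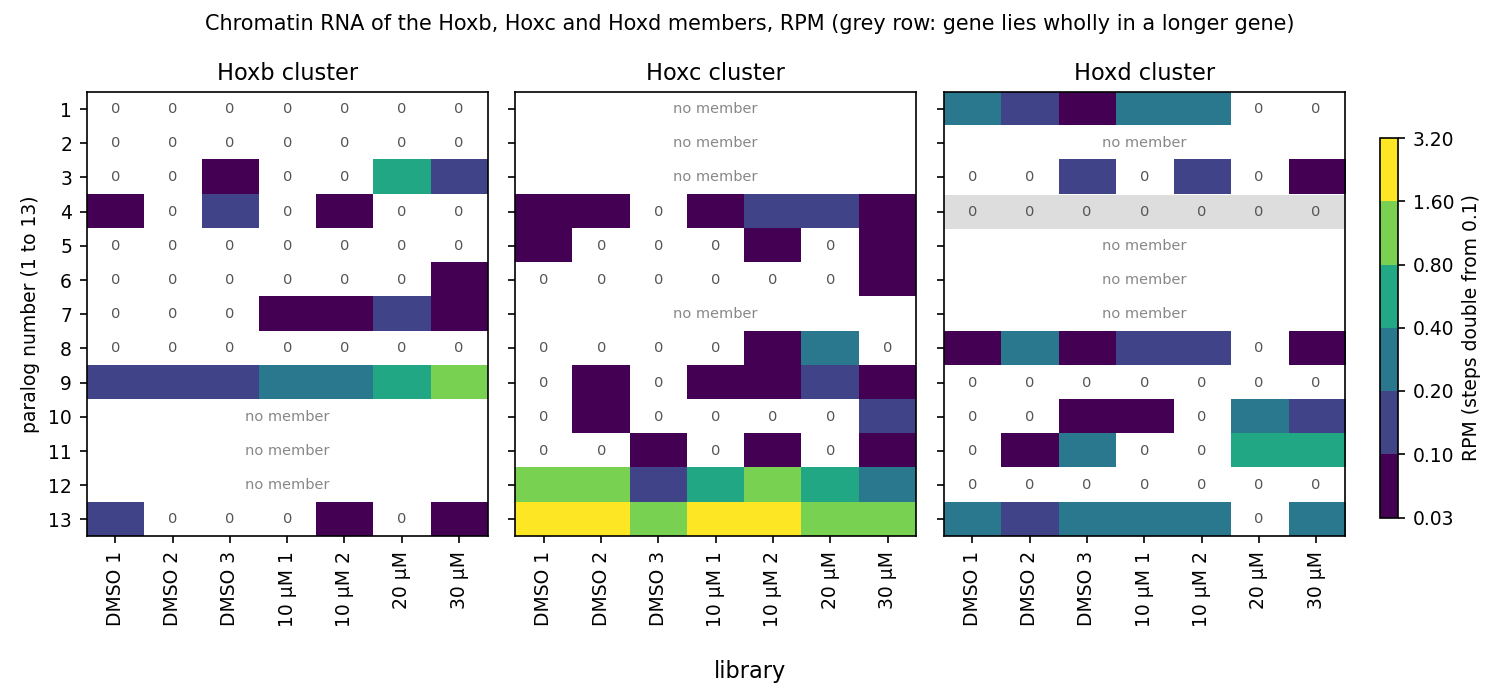
RPM of each member of the Hoxb, Hoxc and Hoxd clusters in each library (columns), with paralog number 1 to 13 down the side and 1 panel per cluster; printed 0 marks no read pair, and the grey row marks Hoxd4, which lies wholly in a longer gene. Hoxc12 and Hoxc13 stand above the other members drawn in DMSO replicates 1 and 2 and in both 10 µM libraries, and the middle of the Hoxb cluster is mostly at 0.

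Over the 4 clusters pooled, the RNA lay densest at their ends, a split chosen after the values were seen. Single clusters departed from this. In the Hoxb cluster, 60 read pairs lay on Hoxb9 against 7 on Hoxb13 and 0 on Hoxb1, and in the Hoxc cluster the inner Hoxc12 was the densest of all members (0.418 RPM per kb, against 0.234 for Hoxc13 and 0.0308 for Hoxc4). The 8 outermost members, the first and the last of each cluster, held 415 of the 723 read pairs (57.4%) in 10.7% of the members' transcript-covered length. This does not rest on Hoxc13: without the Hoxc cluster, 6 outermost members held 116 of 292 read pairs (39.7%) in 7.60% of the length. Both lengths count the bases of the 4 members that lie wholly in a longer member again. The outermost share of the length is therefore given too low. On the per-length scale, the median level was 0.0505 RPM per kb over the 8 outermost members and 0.00636 RPM per kb over 27 inner members with bases of their own. Of the 3 paralog groups with 4 members (numbers 4, 9 and 13), group 13 was the one in which each member was detected. The 2 members of group 4 at 0, Hoxa4 and Hoxd4, lie wholly in a longer gene and give no level. Groups 3, 7 and 10, with 2 or 3 members, had none at 0 either. These are descriptions of 7 libraries over neighbouring genes and carry no test.

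Markers of the cells and of the treatment groups were checked first, since libraries stood apart. Of 18 markers of naive mESCs, 17 had a mean of at least 1 RPM; the other, Sox2, lies wholly in another gene of the same strand. Feeder fibroblasts were in the cultures, and 14 of 28 fibroblast markers had a mean of at least 1 RPM, against 60.3% of all genes. Per length their median was 0.0293 RPM per kb, against 0.252 over all genes with bases of their own. Summed over the 28, the level was 62.7 RPM in DMSO replicate 3 and at most 98.3 RPM in the other DMSO libraries. It was 99.0 and 99.1 RPM at 10 µM, 66.9 RPM at 20 µM and 71.9 RPM at 30 µM. In this sum DMSO replicate 3 thus lay with the high doses. The highest were Col5a1 and Fbn1, with means of 29.1 and 18.3 RPM, and the lowest was Lum, at 0.00611 RPM. Col5a1 and Fbn1 are long (153 and 206 kb), while Col1a1, Col1a2 and Col3a1 had means of 0.409, 0.606 and 0.105 RPM. None of the 28 was at 0 in all libraries. Single markers went both ways. Col6a1 was at 7.36, 10.7 and 0.186 RPM in DMSO replicates 1, 2 and 3, and at 4.53 and 9.59 RPM at 10 µM. It was at 0.215 RPM at 20 µM and 0.257 RPM at 30 µM. Col5a2 was at 2.53, 2.50 and 6.38 RPM in DMSO, and at 1.77 and 1.49 RPM at 10 µM. It was at 7.53 RPM at 20 µM and 7.02 RPM at 30 µM. The part of feeder RNA in the Hox values was not tested. In bulk libraries, fewer cells of a type and less RNA per cell cannot be told apart. Principal component 1 of 13103 autosomal genes (78.8% of the variance) placed DMSO replicate 3 with the 20 µM and 30 µM libraries, and DMSO replicates 1 and 2 with both 10 µM libraries. The labels do not name this split. It is called the library set below, and high-dose values are therefore set beside DMSO replicate 3 as well as the other DMSO libraries.

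Hoxc13 and Hoxc12, posterior Hox genes known from skin appendages and limb, led all members. They held 394 of the 723 read pairs (54.5%). Hoxc13 (chromosome 15, 102921131 to 102928814, + strand) was at 2.44, 2.35 and 1.16 RPM in DMSO replicates 1, 2 and 3, at 2.48 and 2.09 RPM in 10 µM replicates 1 and 2, at 0.968 RPM at 20 µM and at 1.07 RPM at 30 µM. The 3 low libraries were DMSO replicate 3, 20 µM and 30 µM, and the DMSO and 10 µM groups overlapped. DMSO replicate 3 stood at 0.487 times the pooled level of the other DMSO libraries (95% interval 0.303 to 0.755; exact binomial, counting error only), so that libraries of the same treatment differed by more than counting error. Against DMSO replicate 3, Hoxc13 was 0.831-fold at 20 µM (0.341 to 1.84) and 0.919-fold at 30 µM (0.506 to 1.67), and both intervals include 1.

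Hoxc12, which follows Hoxc13 on the same strand (102936853 to 102938517), was the highest member per length, at 0.418 RPM per kb against 0.234 RPM per kb for Hoxc13. Its levels were 1.05, 0.892 and 0.186 RPM in DMSO, 0.670 and 0.980 RPM at 10 µM, 0.753 RPM at 20 µM and 0.342 RPM at 30 µM. DMSO replicate 3 was again the lowest, at 0.194 times the pooled level of the other DMSO libraries (0.0508 to 0.531). Against it the 20 µM library was 4.04-fold higher with an interval of 1.03 to 18.8, from 7 and 4 read pairs. The next Hoxc gene, Hoxc4, ran from 0 to 0.170 RPM.

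Hoxb9, a posterior Hoxb gene active in the trunk, was the one of the 8 members with a mean of at least 0.1 RPM whose levels lay in the order of the doses. It was at 0.143, 0.178 and 0.186 RPM in DMSO (3, 5 and 4 read pairs), at 0.315 and 0.298 RPM at 10 µM (8 and 7 read pairs), at 0.645 RPM at 20 µM (6 read pairs) and at 1.16 RPM at 30 µM (27 read pairs). Every treated library was above every DMSO library, and DMSO replicate 3 did not differ from the other DMSO libraries beyond counting error (1.14-fold, 0.251 to 4.25). The 30 µM library was 6.20-fold above DMSO replicate 3, with a counting interval of 2.16 to 24.4, and the 20 µM library was 3.46-fold above it (0.821 to 16.7). With 1 library at each of these doses the difference has no replicate check. Hoxb9 was also the 1 member of these 8 whose 10 µM libraries lay wholly above DMSO, where 16.5% of 16688 genes did so, and 0 of the 8 lay wholly below, where 8.19% did.

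A noncoding gene, Gm53, lies on the same strand and ends 6.85 kb before Hoxb9. It was at 7.51, 6.64 and 16.9 RPM in DMSO, 7.73 and 8.39 RPM at 10 µM, 22.5 RPM at 20 µM and 27.6 RPM at 30 µM. Thus Gm53 was high in the libraries where Hoxb9 was high, yet also high in DMSO replicate 3, where Hoxb9 was not. At 30 µM it was 1.63-fold above DMSO replicate 3 (1.43 to 1.86). Its part in the Hoxb9 reads was not tested. The other Hoxb genes were lower still. Hoxb3 had 0, 0 and 1 read pairs in DMSO, 0 at 10 µM in both libraries, 4 at 20 µM and 3 at 30 µM, and Hoxb7 had 0 in each DMSO library and 1 or 2 in each treated library.

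Hoxd11, which acts in the forearm and kidney, split by library set. It had 0, 1 and 6 read pairs in DMSO (0, 0.0357 and 0.279 RPM), 0 in both 10 µM libraries, 7 at 20 µM (0.753 RPM) and 11 at 30 µM (0.471 RPM). DMSO replicate 3 was 13.7-fold above the other DMSO libraries pooled (1.66 to 629), a ratio that rests on 1 read pair below. Compared with DMSO replicate 3, the levels were 2.69-fold at 20 µM (0.775 to 9.70) and 1.68-fold at 30 µM (0.571 to 5.55). Neither interval leaves out 1.

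Hoxd1, the anterior end of the Hoxd cluster, went the other way, with 0.239, 0.143 and 0.0466 RPM in DMSO, 0.237 and 0.298 RPM at 10 µM and 0 at both 20 µM and 30 µM. A 0 at 20 µM allows up to 0.323 RPM and a 0 at 30 µM up to 0.128 RPM, so that at 20 µM no drop was detectable at this depth. At 30 µM no drop from DMSO replicate 3 (1 read pair) was detectable either, with a ratio interval of 0 to 35.8. Hoxd13, the posterior end, a digit and hindgut gene, was at 0.287, 0.107 and 0.326 RPM in DMSO, 0.237 and 0.341 RPM at 10 µM, 0 at 20 µM and 0.342 RPM at 30 µM. The DMSO and 10 µM groups overlapped. The 0 at 20 µM was below both, with no drop detectable at this depth from DMSO replicate 3 (7 read pairs), and the 30 µM library was 1.05-fold over DMSO replicate 3 (0.333 to 3.40).

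In the Hoxa cluster, Hoxa3 was at 0.0478, 0.107 and 0.186 RPM in DMSO, 0 and 0.213 RPM at 10 µM, 0.645 RPM at 20 µM and 0.257 RPM at 30 µM. The gene is 44.0 kb long as counted, so that its level per length (0.00473 RPM per kb) was far under that of Hoxc13. Hoxa10 had no read pair in DMSO, 1 and 2 read pairs in the 10 µM libraries, 4 in the 20 µM library and 0 in the 30 µM library.

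**Figure D2:**
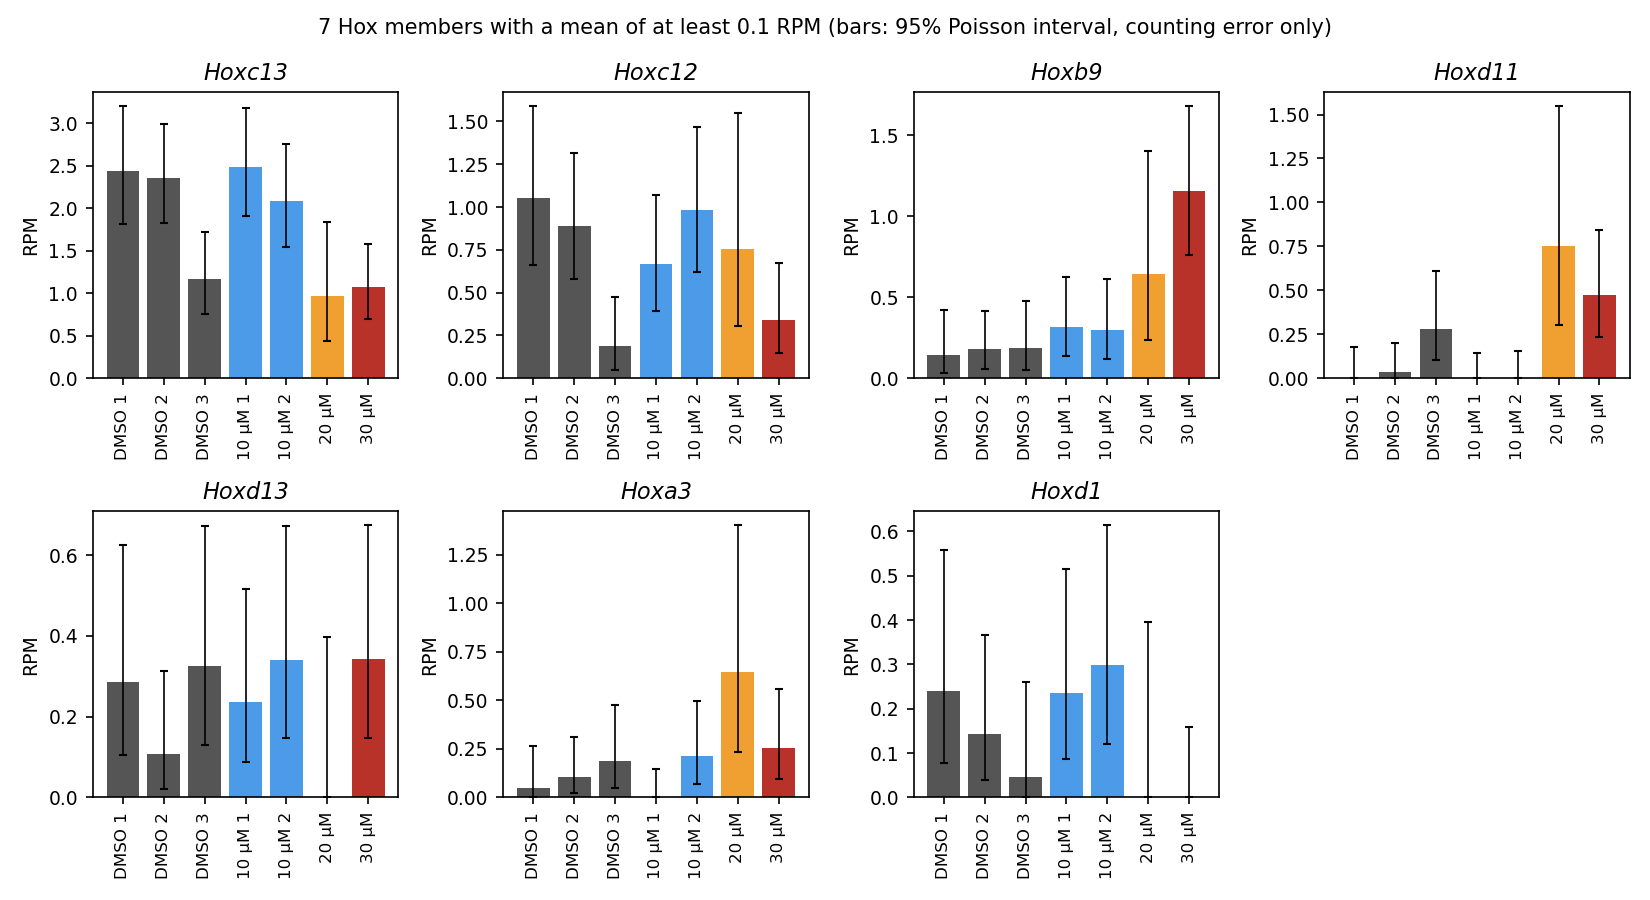
RPM per library (bars; error bars are 95% Poisson intervals on the read pairs) of 7 Hox members with a mean of at least 0.1 RPM. Hoxb9 is lowest in the 3 DMSO libraries and highest at 30 µM (1.16 RPM), while Hoxc13 is low in DMSO replicate 3 as well as at 20 µM and 30 µM.

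For 10 µM against DMSO, limma on log2(RPM + 1) was run on the 13599 genes that averaged 1 RPM or more. It called 0 genes (0%; 212 at an unadjusted p under 0.05) and 0 Hox members. Hoxc13 was the 1 member tested. Its levels were 1.99 ± 0.713 RPM in DMSO (SD, n = 3) and 2.29 ± 0.280 RPM at 10 µM (SD, n = 2), and its difference was 0.17 ± 0.29 (SE) on the log2(RPM + 1) scale, with an adjusted p of 0.858 by limma. The median over all genes was 0.09 on that scale. With DMSO replicates 1 and 2 paired to 10 µM replicates 1 and 2 (replicate block, without DMSO replicate 3), limma called 1020 genes (7.5%), 561 higher and 459 lower, and the Hoxc13 difference became -0.05 ± 0.17 with an adjusted p of 0.910.

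To reach more members, edgeR's quasi-likelihood test was run on the read pairs of 16688 genes that averaged 0.1 RPM or more, a choice made after seeing that most members lay lower than 1 RPM. This took in 8 members, and passing the filter required RNA in at least some library. It called 0 genes (0%) and 0 members, where 316 genes (1.89%) and 0 members had an unadjusted p under 0.05. With the replicate block it called 795 genes (4.76%) and 0 members. The log2 difference of Hoxb9 was 0.74 ± 0.57 (SE), and 0.87 ± 0.69 with the block, with adjusted p of 0.862 and 0.572 by edgeR. Hoxd1 had 0.81 ± 0.70. Hoxc12 and Hoxc13 were at 0.14 ± 0.65 and 0.13 ± 0.40 and changed sign with the block, to -0.25 ± 0.35 and -0.10 ± 0.23, as did Hoxa3, from -0.23 ± 1.19 to 0.42 ± 1.07. With errors of this size, no single member could be told apart from no difference.

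Across all 7 libraries, the dose trend was fitted as a log2 slope per 10 µM. limma called 0 genes (0%; 1174 at an unadjusted p under 0.05) and 0 members, and the slope of Hoxc13 was -0.20 ± 0.12 (SE; adjusted p = 0.508 by limma) on the log2(RPM + 1) scale. With the library set as a term, limma called 27 genes (0.199%), none of them a member, and the slope of Hoxc13 was -0.03 ± 0.08.

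In edgeR at a mean of at least 0.1 RPM, the slope of Hoxb9 was 0.96 ± 0.17 (SE) per 10 µM. Its unadjusted p was 0.00034, and the p adjusted over 16688 genes was 0.468 by edgeR, so that it was not called. 1 of 8 members had an unadjusted p under 0.05, where 1488 genes (8.92%) did, and 0 genes (0%) were called. With the library set as a term the slope of Hoxb9 was 0.85 ± 0.21 with an adjusted p of 0.127 by edgeR, and 79 genes (0.473%) and 0 members were called. Left out 1 at a time, no library moved the Hoxb9 slope below 0.93 or above 1.00, and without the 30 µM library it was 0.97 ± 0.32. Without DMSO replicate 3 edgeR called 2744 genes (16.4%), among them Hoxb9 (1.00 ± 0.19, adjusted p = 0.0183) and Hoxd11 (1.79 ± 0.53, adjusted p = 0.0444). In that fit the second library set holds the 20 µM and 30 µM libraries alone. High dose and library set therefore cannot be told apart in these 2 calls. Hoxd11 passed the 0.1 RPM filter only through DMSO replicate 3, 20 µM and 30 µM (0.279, 0.753 and 0.471 RPM). In every other library it was at 0 or 0.0357 RPM. Its call therefore gives no support of its own.

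The slope of Hoxd11 was 1.02 ± 0.57 over the 7 libraries and 0.23 ± 0.29 with the library set. Both high doses lie in 1 set, with DMSO replicate 3 as its only DMSO library. The parts of set and dose in this slope therefore cannot be told apart. The slope of Hoxd1 also shrank, from -0.68 ± 0.53 to -0.05 ± 0.53, and that of Hoxa3 from 0.66 ± 0.44 to 0.20 ± 0.38. Hoxd13 had 0.08 ± 0.31 and 0.05 ± 0.32. Hoxc12 changed sign, from -0.18 ± 0.28 to 0.13 ± 0.26. Both comparisons share the DMSO and 10 µM libraries.

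**Figure D3:**
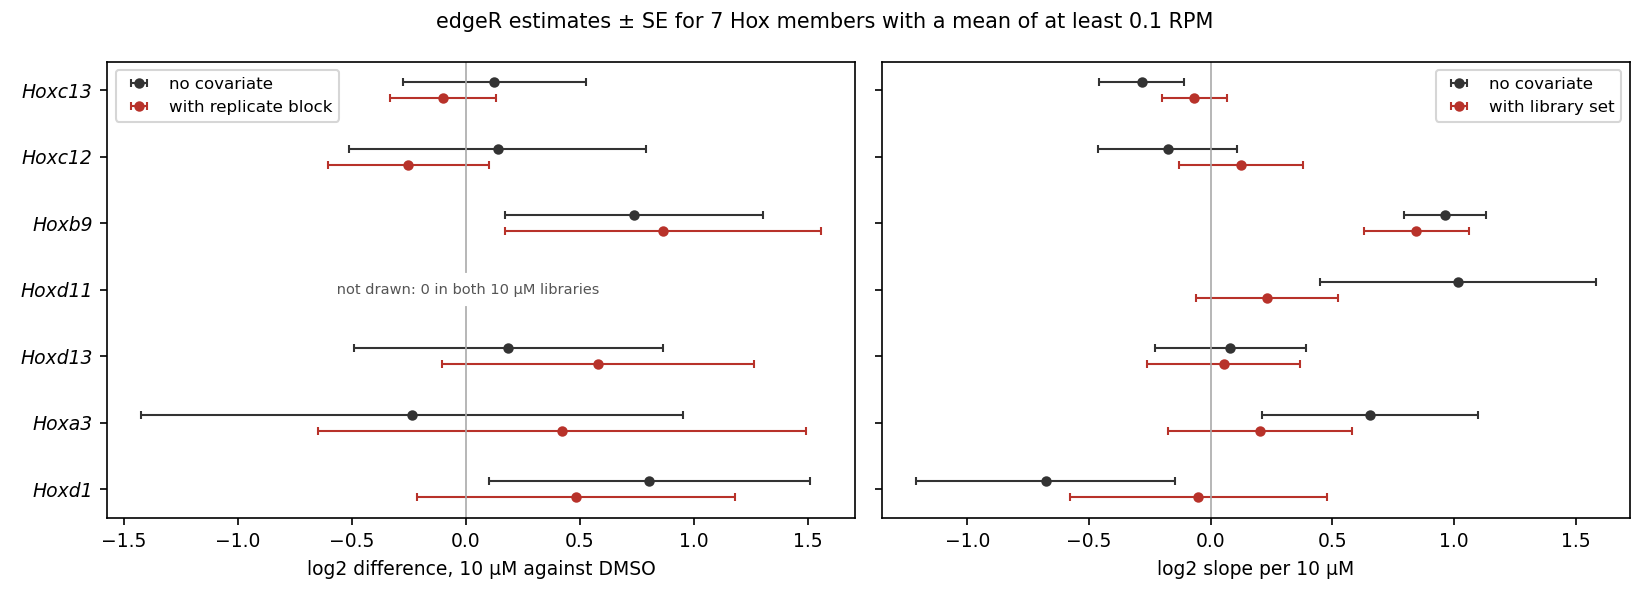
edgeR estimates with SE for 7 members with a mean of at least 0.1 RPM: the log2 difference of 10 µM against DMSO (left; Hoxd11 is not drawn, since both 10 µM libraries are at 0) and the log2 slope per 10 µM over 7 libraries (right), each without and with the covariate named in its legend. Hoxb9 has the slope with the smallest change when the library set enters (0.96 and 0.85) among the slopes drawn above 0.5.

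Summed over the 39 members, the level was 5.02, 4.39 and 3.07 RPM in DMSO replicates 1, 2 and 3, 4.77 and 5.62 RPM at 10 µM, 6.13 RPM at 20 µM and 5.09 RPM at 30 µM. The mean was 4.16 ± 0.993 RPM in DMSO (SD, n = 3) and 5.20 ± 0.604 RPM at 10 µM (SD, n = 2), and the groups overlapped. Because the members were chosen with results known, no p is given for a sum. Against DMSO replicate 3 the sum was 1.99-fold at 20 µM (1.37 to 2.89) and 1.66-fold at 30 µM (1.22 to 2.27), but DMSO replicate 3 itself was 0.660 times the other DMSO libraries (0.494 to 0.871).

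The clusters did not share 1 pattern. The Hoxb sum was 0.335, 0.178 and 0.373 RPM in DMSO, 0.355 and 0.511 RPM at 10 µM, 1.18 RPM at 20 µM and 1.50 RPM at 30 µM, so that both high-dose libraries lay above the other 5. At 30 µM, 27 of its 35 read pairs were on Hoxb9. The Hoxa sum was 0.321 to 0.478 RPM in DMSO, 0.512 and 0.682 RPM at 10 µM, 1.61 RPM at 20 µM and 0.599 RPM at 30 µM, and 20 µM stood alone, at 4.33-fold over DMSO replicate 3 (1.72 to 11.8). The Hoxd sum was 0.499 to 0.931 RPM in DMSO, 0.631 and 0.937 RPM at 10 µM, 1.08 RPM at 20 µM and 1.11 RPM at 30 µM, with intervals of the ratios to DMSO replicate 3 that include 1 (0.483 to 2.58 and 0.641 to 2.26). The Hoxc sum followed the library set, at 3.63 and 3.39 RPM in DMSO replicates 1 and 2, 1.40 RPM in DMSO replicate 3, 3.27 and 3.49 RPM at 10 µM, 2.26 RPM at 20 µM and 1.88 RPM at 30 µM.

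**Figure D4:**
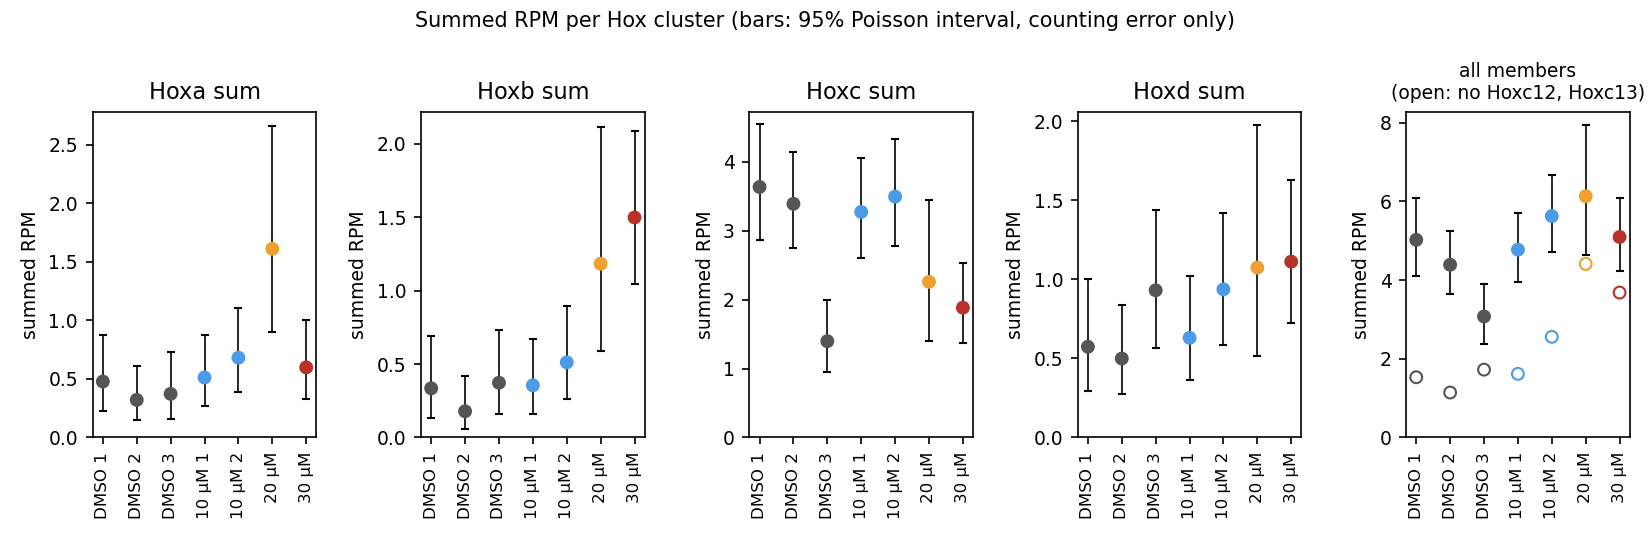
Summed RPM per cluster and over all members in each library (points; bars are 95% Poisson intervals); open points in the last panel leave out Hoxc12 and Hoxc13. The Hoxb sum is highest at 20 µM and 30 µM (1.18 and 1.50 RPM), and the Hoxc sum is lowest in DMSO replicate 3, 20 µM and 30 µM.

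Leaving out Hoxc12 and Hoxc13, a choice made after their values were seen, changed the picture. The other 37 members summed to 1.53, 1.14 and 1.72 RPM in DMSO, 1.62 and 2.56 RPM at 10 µM, 4.41 RPM at 20 µM and 3.68 RPM at 30 µM. Both high-dose libraries were above every other library, and DMSO replicate 3 was 1.32-fold the other DMSO libraries (0.855 to 2.01). The ratio to DMSO replicate 3 was 2.56-fold at 20 µM (1.60 to 4.10) and 2.14-fold at 30 µM (1.44 to 3.23). At 10 µM it differed between the pairs, with 1.06-fold for replicate 1 (0.649 to 1.73) and 2.24-fold for replicate 2 (1.43 to 3.55). Without Hoxb9 as well, the ratios to DMSO replicate 3 were 2.45 at 20 µM and 1.64 at 30 µM. The 8957 genes with a mean under 1 RPM gave, as a sum, ratios of 1.08 and 1.15, and 41 other developmental Polycomb targets under 1 RPM gave 0.877 and 1.07. Whether the Hox sum differs from these by more than the spread between libraries was not tested, since each high dose has 1 library.

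Any read pair was found for 13, 13 and 16 members in DMSO, for 14 and 19 members in the 10 µM libraries, for 15 members in the 20 µM library and for 21 members in the 30 µM library. This order followed neither dose nor depth alone, and the 20 µM library was the shallowest.

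Most genes that flank the clusters were well above the Hox genes in the same libraries. Per length, the 35 members with bases of their own had a median of 0.00735 RPM per kb, against 0.0187 over 51 other developmental Polycomb targets, 1.46 over 18 genes that flank the clusters and 0.252 over all 22164 such genes. PRC2 genes had a median of 4.32 RPM per kb (11 of 11 with a mean of at least 1 RPM, among them Suz12, Jarid2 and Mtf2), PRC1 genes 1.36 (19 of 21, with Cbx6 left out of the median because it lies wholly in another gene) and trithorax genes 2.89 (11 of 11). The 9 Hox cofactor genes, Pbx, Meis and Pknox, which bind DNA together with Hox proteins, all had a mean of at least 1 RPM. The upstream regulators, genes of the retinoic acid pathway and the Cdx factors, had a median of 0.0436 RPM per kb, and 8 of 14 had a mean of at least 1 RPM. The Cdx genes, direct activators of Hox genes, did not: Cdx1 and Cdx4 had means of 0.218 RPM each and Cdx2 0.00666 RPM. The retinoic acid receptors Rara, Rarb and Rarg had 22.4, 22.0 and 17.8 RPM. Noncoding RNAs of the clusters were as low as the Hox genes, with 5 of 5 under 0.1 RPM, Hotair and Hottip included.

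**Figure D5:**
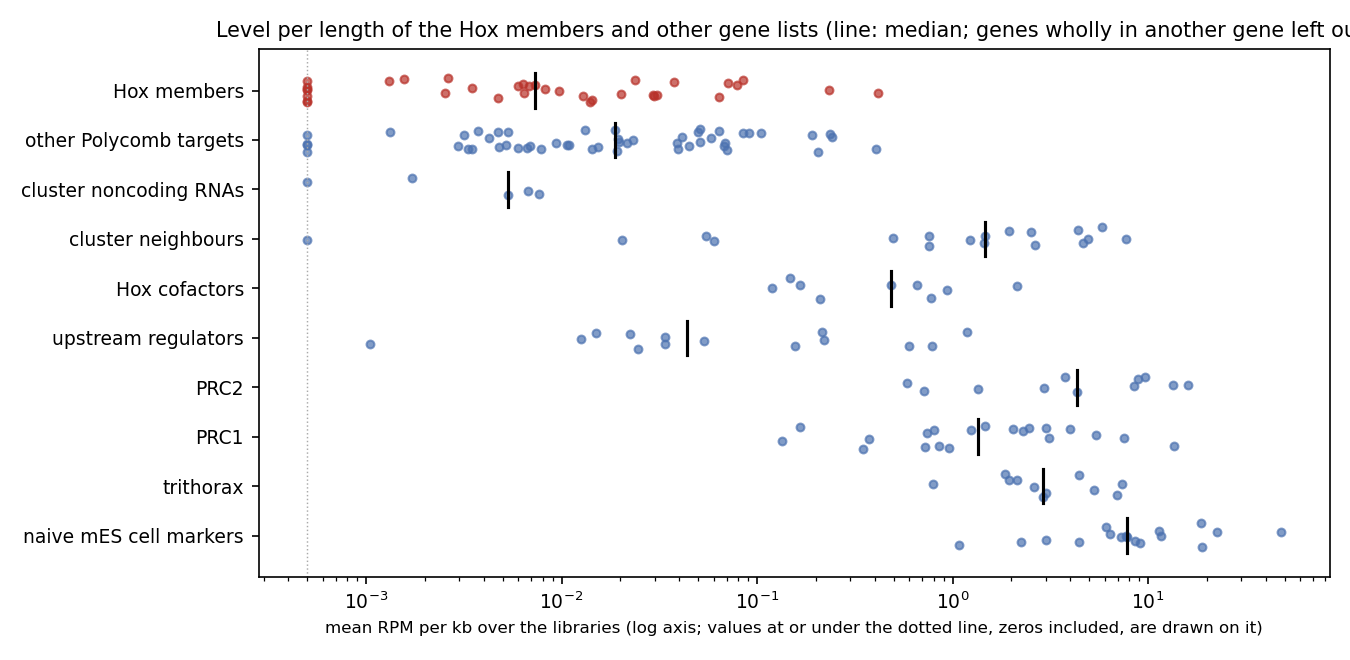
Mean RPM per kb over the 7 libraries (log axis) of each gene of 10 lists, 1 point per gene, with the median as a line and genes that lie wholly in another gene left out. Hox members lie lowest together with the cluster noncoding RNAs, and the genes of the Polycomb and trithorax complexes lie above 0.1 RPM per kb.

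In both comparisons limma called 0 of 13599 genes (0%). That none of the PRC2, PRC1, trithorax, cofactor and upstream lists was called therefore says nothing particular to these lists. With the replicate block, 7.5% of all genes were called at 10 µM, and some genes of these lists with them, among them Rarb and Phc1 (both lower). PRC2 and trithorax genes numbered 0 calls of 11 each, too few genes at that share to say anything of them. Their differences were above 0 for 0 of 11 PRC2 genes (median -0.107) and 3 of 11 trithorax genes (median -0.064). The median over all genes was 0.027. The lists were not tested as sets. Meis2, a Hox cofactor, was at 7.27, 5.64 and 40.7 RPM in DMSO, 8.87 and 6.86 RPM at 10 µM, 45.4 RPM at 20 µM and 56.1 RPM at 30 µM, so that DMSO replicate 3 lay with the high doses. The retinoic acid receptor Rarg did likewise, at 9.04, 4.07 and 32.4 RPM in DMSO, 7.77 and 5.33 RPM at 10 µM, 30.3 RPM at 20 µM and 35.9 RPM at 30 µM.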

How the data were processed

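ChrRNA-seq was measured in 7 libraries grouped by their labels. The authors discarded reads that matched rRNA (Bowtie2) and mapped what was left with STAR to an mm10 genome masked at allelic SNPs. Uniquely mapped pairs were assigned by strand to whole transcripts (featureCounts), and the authors deposited edgeR's RPM. No option for read pairs over more than 1 gene is stated, and these are dropped by default. The deposited allelic ratio table covers X-linked genes and was not used here. Starts in the table were 1 base below RefSeq for 83.0% of + strand genes, so 1 was added.

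Whole read pairs were recovered from the RPM steps (100% of values whole within 0.1). Main tests were limma 3.58.1 (lmFit, eBayes with trend) on log2(RPM + 1), two-sided, Benjamini-Hochberg adjusted p under 0.05, for genes averaging at least 1 RPM. Fold changes on this scale understate low genes. edgeR 4.0.16 and DESeq2 1.42.0 (R 4.3.3) were alternatives, and Python 3.11.15 with scipy 1.17.1 gave the rest. limma and edgeR without a covariate were checked on simulated counts, with changes put only into genes of high count. That check did not cover DESeq2, the fits with a covariate or changes in genes as low as the Hox members. Intervals (95%, exact Poisson or exact binomial) and limits of a count of 0 cover counting error only. Replicate numbers 1 and 2 pair DMSO with 10 µM, since the methods split wells of a biological replicate from 1 batch of cells. The differences between replicates 1 and 2 in DMSO and at 10 µM correlated at 0.621 over 13599 genes. Replicates may share cultures, so p-values measure the spread between these libraries. Named with all values were members with a mean of at least 1 RPM and the 3 highest of each cluster, except 1 that is not reported here; of other lists, genes were named for their role or a call, after their values were seen. The members and gene lists were chosen with earlier results of these data known.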

Additional observations from a re-analysis of the deposited data

How the results depend on the processing

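Most members lay near the limit of a count of 0, and 20 µM and 30 µM had 1 library each, so that depth and replicate number limit what could be seen. The 10 µM comparison, with 0 genes called by limma, gave 1020 with the replicate block, 795 by edgeR at 0.1 RPM with the block, 1 by DESeq2, and 0 to 1 with each replicate left out (1 without DMSO replicate 3). The dose trend, also at 0, gave 129 by DESeq2, 27 and 79 with the library set (limma, and edgeR at 0.1 RPM), and 0 to 2485 with each replicate left out by limma or 0 to 2744 by edgeR, where the highest is without DMSO replicate 3. No member was called in any setting but edgeR without DMSO replicate 3, where 2 were, so that the range is 0 to 2. The cause was not tested.

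Of values of single members that were not called, the 10 µM difference changed sign with the replicate block for Hoxc13 (-0.050 by limma, -0.10 by edgeR), Hoxc12 (-0.25) and Hoxa3 (0.42). The Hoxc12 slope changed sign with the library set (0.13) and without the 30 µM library (0.14), and the Hoxd13 slope without the 30 µM library (-0.48). With each replicate left out, the difference of Hoxc13 ran from -0.050 to 0.28 by limma, and by edgeR those of Hoxc13 from -0.092 to 0.27 (-0.026 without 10 µM replicate 1), Hoxc12 from -0.26 to 0.48 (-0.13 without 10 µM replicate 2), Hoxa3 from -4.55 to 0.75 (0.29 without DMSO replicate 3) and Hoxd13 from -0.20 to 0.58 (-0.075 without 10 µM replicate 2), and the slope of Hoxd13 from -0.049 to 0.22. Where 10 µM is left with 1 library, it is assumed to vary like DMSO.

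The 10 µM difference in summed RPM without the highest member of each cluster was 0.0546 for Hoxa and 0.000367 for Hoxb, against 0.207 and 0.138, and with each replicate left out that for Hoxa ran from 0.122 to 0.291. At 20 µM against DMSO replicate 3, TMM factors gave 1.49 for Hoxa and 0.985 for Hoxb, against 1.24 and 0.810, and leaving out the highest members gave 0.964 for Hoxa, 0.351 for Hoxb and 0.470 for Hoxd, against 1.24, 0.810 and 0.144. At 30 µM, leaving out the highest members gave 0.0164 for Hoxa, 0.156 for Hoxb and 0.918 over all members, and leaving out Hoxc12, Hoxc13 and Hoxb9 gave 0.988, against 0.227, 1.13 and 2.02. All of these kept their sign.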

Other observations

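Gm15055, a noncoding gene on the + strand near the Hoxa cluster, was at 7.60, 5.60 and 21.1 RPM in DMSO replicates 1, 2 and 3, 7.33 and 4.43 RPM at 10 µM, 23.4 RPM at 20 µM and 21.3 RPM at 30 µM, so that DMSO replicate 3 lay with the high doses. Evx1, a homeobox gene beside the Hoxa cluster, was at 0.0956, 0.0714 and 0.466 RPM in DMSO, 0.276 and 0.0426 RPM at 10 µM, 0.430 RPM at 20 µM and 0.685 RPM at 30 µM.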
